A study of Mus musculus with 52 samples.

Results

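Gene expression in the hypothalamus of mice that received insulin at the high rate was set against that of mice that received saline. The comparison holds 10 of the 52 RNA libraries of the series, chosen by the tissue and dose in their titles. They are 5 libraries of the high group, infused intravenously with insulin at 12 mU/kg/min, and 5 of the basal group, infused with saline. All mice were 3-month-old male C57BL/6J, an inbred laboratory strain with no engineered allele in the labels. All had a jugular catheter, were conscious, and were under a clamp of 3 h in which infused glucose adjusted the blood glucose. A further 6 hypothalamic libraries, from mice infused at 4 mU/kg/min (the low group), entered the same model to estimate the spread between libraries. Of 46071 genes in the table, 14139 had enough counts to be tested. No label links a library to an animal of its own, and p-values here therefore rest on the scatter among libraries, part of which may be technical.

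The hypothalamus governs feeding, hormone release and body temperature, and its neurons carry insulin receptors. Insulin binds its receptor, whose kinase phosphorylates the IRS adaptors. These activate PI3-kinase and AKT, which keep FOXO transcription factors out of the nucleus and raise mTORC1 activity and SREBP-driven lipid synthesis. Adaptors and ubiquitin ligases such as SH2B1 and CBL tune the signal at the receptor, and sestrins restrain mTORC1 when nutrients are short.

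Total counts were 4194841 to 6137005 in high libraries and 2453412 to 7144772 in basal ones. Libraries differed in how strongly genes with GC-rich transcripts were represented. This lean is the Spearman correlation, across genes, between a library's deviation from the mean of the 16 hypothalamic libraries (log2 scale) and the GC content of each gene's longest transcript. It was -0.60, 0.16, -0.50, -0.11 and -0.06 in high replicates 1 to 5, and 0.64, 0.70, -0.23, -0.15 and 0.42 in basal replicates 1 to 5. Basal replicates 1, 2 and 5 therefore leaned to GC-rich transcripts (above 0.4), while no high library did, and the 2 groups overlapped. The mean lean was -0.22 ± 0.32 in high and 0.27 ± 0.44 in basal libraries (SD, n = 5 each), a difference of -0.50 with p = 0.0873 by an exact 2-sided permutation test, whose smallest possible p here is 0.00794. Adjusted over the 4 library properties tested, that p was 0.349. The lean to long transcripts differed by 0.25 (exact permutation p = 0.238), genes detected by 451 (exact permutation p = 0.437) and total count by 19152 (exact permutation p = 0.976). The tag numbers in the titles, whose meaning the labels do not give, fall into 3 ranges. From lowest to highest they hold 0, 2 and 3 high libraries and 2, 0 and 3 basal libraries. Only the highest range thus sets high against basal libraries directly, and in the others range and infusion cannot be told apart by these 2 groups. The low group has 1, 2 and 3 libraries in the ranges, so a fit of all 16 libraries also compares high and basal through it. Within the highest range the difference in lean was -0.24 (exact permutation p = 0.6, with 3 against 3 libraries, where p cannot go below 0.1).

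**Figure D1:**
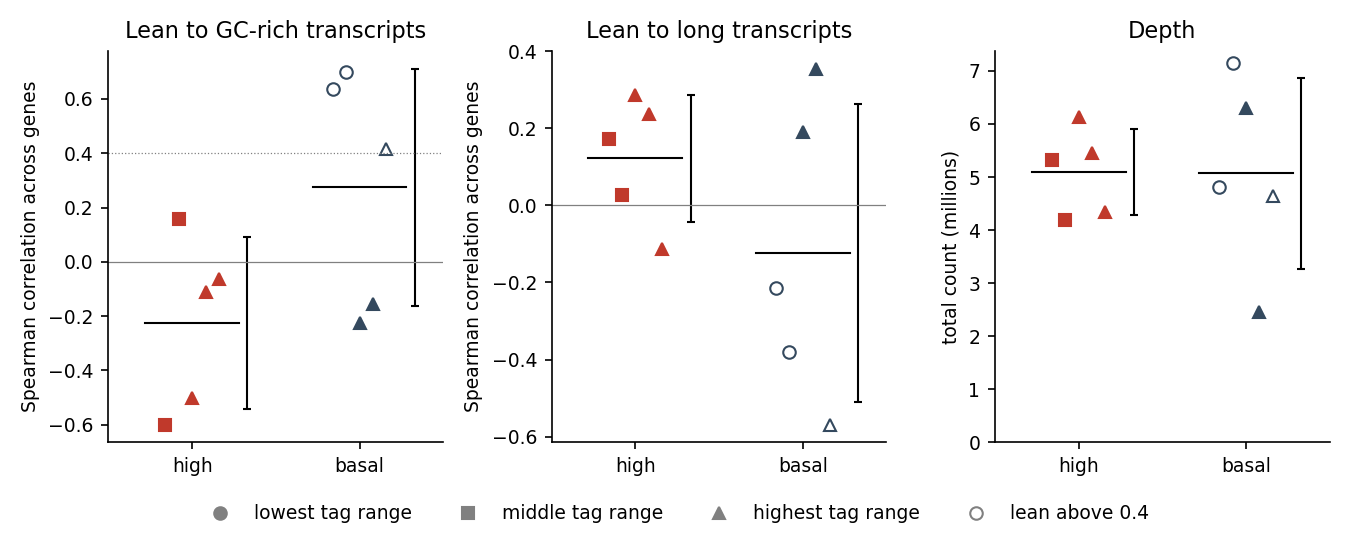
Lean to GC-rich transcripts, lean to long transcripts (both Spearman correlations across genes) and total count for each of the 5 high (red) and 5 basal (dark) libraries. Lines are means, bars are SD, the marker shape gives the tag range and open markers are libraries with a GC lean above 0.4. All 3 open markers are basal, 2 of them in the lowest tag range, and no high library lies in that range.

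To show how far transcripts differ in GC content, below are 120 bases from the middle of the coding sequence, 5′ to 3′, of the genes with the lowest and the highest GC content among those named below for being near the threshold or for turning direction, with each G and C in capitals (GENCODE M21 transcripts). They were picked for their GC content among genes already named and illustrate that range only. Ptbp2, a neuronal splicing regulator on chromosome 3, has 48 G or C in coding bases 739 to 858, and its longest transcript is 34.2% GC. Prr7, a transmembrane protein of synapses on chromosome 13, has 87 in coding bases 346 to 465, and its longest transcript is 69.0% GC.
Ptbp2: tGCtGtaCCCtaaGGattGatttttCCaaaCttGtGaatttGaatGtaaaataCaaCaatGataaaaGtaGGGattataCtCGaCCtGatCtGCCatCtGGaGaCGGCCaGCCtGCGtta
Prr7: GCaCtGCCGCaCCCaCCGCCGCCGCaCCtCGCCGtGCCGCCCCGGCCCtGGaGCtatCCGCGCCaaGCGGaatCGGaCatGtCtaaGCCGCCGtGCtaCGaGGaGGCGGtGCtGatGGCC
Ptbp2 averaged 406 ± 43.1 CPM, counts scaled to library size, in high and 279 ± 119 CPM in basal libraries, and Prr7 averaged 5.46 ± 1.68 CPM in high and 13.1 ± 5.86 CPM in basal libraries (SD, n = 5 each). Neither passed the test (log2 fold change 0.55, adjusted p = 0.161, and -1.29, adjusted p = 0.0829).

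Of the 14139 genes tested, edgeR's quasi-likelihood test called 26 at an adjusted p under 0.05, which is 0.184%. Of these, 25 were higher in the high group (0.177% of the genes tested) and 1, Angptl4, was lower (0.00707%). The higher genes included the mTORC1 regulator Sesn3, the sterol sensor Insig1, the receptor ubiquitin ligase Cbl, the netrin receptor Dcc and the calcium release channel Ryr3. Their log2 fold changes ran between 0.59 and 2.94 with a median of 1.87, whereas the median over all genes tested was -0.03. All 5 high libraries lay above all 5 basal ones for 24 of the 25 higher genes, against 262 of all genes tested (1.85%), and Angptl4 was 1 of 117 (0.827%) with all 5 high libraries below, where the same libraries had chosen the genes. An unadjusted p under 0.05 was reached by 3406 genes, 24.1% of those tested. DESeq2 called 359 genes (2.54%), with 257 higher (1.82%) and 102 lower (0.722%).

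The count of calls depended on single libraries. Without basal replicate 1 or 2, which lean to GC-rich transcripts, 14 (0.0977%) or 6 (0.0421%) genes were called, all higher. Without basal replicate 3 or 4, which do not, 613 (4.29%; 322 higher, 291 lower) or 1861 (13%; 958 higher, 903 lower) were called. Without basal replicate 5, which leans too, 27 were (0.189%). Leaving out high replicate 1, 4 or 5 gave 15 (0.105%), 10 (0.0701%) or 17 (0.119%) genes, all higher. Without high replicate 2 it was 20 of 14342 genes, all higher, and without high replicate 3 it was 21 of 14287, 1 of them lower. Without all 3 GC-leaning libraries, which leaves 2 basal libraries, 1 gene was called (0.0068%), Sesn3. When each library's lean entered as a covariate 4 were called (0.0283%), Sesn3, Dcc, Ryr3 and Atp8a2. When tag range entered as a batch term 5 were called (0.0354%), the same 4 and Srrm4os. With the highest tag range alone none was called, and 640 of 14405 genes had an unadjusted p under 0.05 in edgeR. The 26 genes kept their direction under each of these fits, which share most or some of their libraries.

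Sesn3 encodes sestrin 3, a stress-responsive inhibitor of mTORC1 that is also a known FOXO target, and had the smallest p of all genes (chromosome 9, 14275067 to 14333101, plus strand, GRCm38). Its level was 62.9, 51.6, 64.7, 53.4 and 48.0 CPM in high replicates 1 to 5, against 16.8, 16.8, 17.7, 27.1 and 10.6 CPM in basal replicates 1 to 5. Every high library lay above every basal one, and basal replicate 4 was the highest of the basal libraries. Its log2 fold change came to 1.68 (SE 0.18, adjusted p = 0.000351). It was 1.37 without the GC-leaning libraries (adjusted p = 0.0407), 1.43 with the lean covariate (adjusted p = 0.00198) and 1.60 in the highest tag range alone (adjusted p = 0.391). Sesn3 was called in each of the 16 fits that left out 1 library.

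Cbl encodes a ubiquitin ligase that acts on activated receptor tyrosine kinases and on insulin receptor signalling. It had 26.0, 28.6, 42.4, 35.7 and 21.1 CPM in high libraries, against 8.51, 7.72, 8.64, 16.5 and 1.55 CPM in basal libraries. The groups did not overlap, and basal replicate 5 stood lowest. The log2 fold change was 1.91 (SE 0.34, adjusted p = 0.0188), with 1.39 without the GC-leaning libraries (adjusted p = 0.637). The call was lost in 4 of the 10 fits that left out a high or basal library.

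Insig1 encodes an endoplasmic reticulum protein that holds SCAP and SREBP back when sterols are plentiful, and its gene, on chromosome 5 (28071363 to 28078662, plus strand), is itself an SREBP target. It had 119.3, 97.1, 119.5, 112.5 and 122.1 CPM in high libraries, against 69.7, 60.9, 67.8, 75.7 and 76.3 CPM in basal libraries. The groups were well apart, with the lowest high library above the highest basal one. The log2 fold change was 0.71 (SE 0.12, adjusted p = 0.0158). Its size hardly moved with the libraries, at 0.67 without the GC-leaning ones, 0.71 with the lean as a covariate and 0.67 in the highest tag range, although adjusted p was 0.637, 0.0803 and 0.721 there. Over all 33 other settings its log2 fold change stayed between 0.64 and 0.76. Its call was kept in only 5 of the 10 fits that left out a high or basal library.

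Angptl4, a secreted inhibitor of lipoprotein lipase that fasting, PPAR factors and glucocorticoids are known to induce, was the gene called lower (chromosome 17, 33773750 to 33781830, minus strand). It had 5.10, 7.27, 9.30, 6.26 and 5.89 CPM in high libraries, against 14.4, 18.6, 12.1, 9.46 and 18.1 CPM in basal libraries. High replicate 3 and basal replicate 4 were nearly level, and the groups did not overlap. The log2 fold change was -1.11 (SE 0.21, adjusted p = 0.0369) and -0.69 without the GC-leaning libraries (adjusted p = 0.9998). It kept its call in 3 of the 10 fits that left out a high or basal library.

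Promoter sequence is shown for Sesn3 and Insig1, since the levels of both are known to follow transcription factors under insulin's control. The 250 bases before the start that RefSeq gives each gene (GRCm38.p6, plus strand, 5′ to 3′, chr9:14276051-14276300 for Sesn3 and chr5:28071162-28071411 for Insig1) are given with matches to 3 motifs in capitals. The motifs, searched on both strands, were the palindromic E-box CACGTG, the CCAAT box (CCAAT, printed as ATTGG where it lies on the other strand) and the FOXO element GTAAACA, none overlapping another in these windows. RefSeq and the GENCODE annotation place the starts differently: the GENCODE genes begin at 14275067 for Sesn3, so that its window lies inside the GENCODE gene, and at 28071363 for Insig1, within its window. Distances below count from the RefSeq start.
Sesn3: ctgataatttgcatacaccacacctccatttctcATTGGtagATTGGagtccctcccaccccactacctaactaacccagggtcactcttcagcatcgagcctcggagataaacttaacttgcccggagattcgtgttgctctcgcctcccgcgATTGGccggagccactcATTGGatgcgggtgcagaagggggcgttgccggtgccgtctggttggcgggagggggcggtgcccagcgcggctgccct
Insig1: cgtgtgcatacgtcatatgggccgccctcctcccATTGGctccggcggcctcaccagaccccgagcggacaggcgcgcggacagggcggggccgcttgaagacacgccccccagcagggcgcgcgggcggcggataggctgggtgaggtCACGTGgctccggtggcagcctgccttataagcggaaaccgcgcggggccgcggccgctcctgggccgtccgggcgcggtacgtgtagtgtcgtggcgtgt
The Sesn3 window held 4 CCAAT boxes, between 79 and 216 bases before that start, and none of the other motifs. The Insig1 window held 1 E-box, 101 bases before the start, and 1 CCAAT box, 216 bases before it. Of 32851 mouse promoters of this length, 33.8% held a CCAAT box, 6.02% the E-box and 3.17% the FOXO element. These matches describe letters and are not shown to be bound.

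A further group of higher genes serves neuronal membranes and calcium. Dcc, the netrin-1 receptor that steers axons and shapes synapses, had 10.2, 9.38, 12.7, 13.1 and 9.96 CPM in high libraries, against 2.84, 1.93, 1.41, 4.52 and 1.99 CPM in basal libraries. All high libraries lay above all basal ones by a wide gap, and the log2 fold change was 2.24 (SE 0.26, adjusted p = 0.000562). It changed little with the lean, at 2.16 without the GC-leaning libraries (adjusted p = 0.17), 2.23 with the lean covariate (adjusted p = 0.00805) and 2.31 in the highest tag range (adjusted p = 0.391). Ryr3, a ryanodine receptor that releases calcium from the endoplasmic reticulum, had 81.9, 77.4, 100.4, 95.2 and 107.8 CPM in high libraries, against 50.4, 41.3, 43.3, 44.8 and 27.9 CPM in basal libraries. Its groups were apart too, and the log2 fold change, 1.16 (SE 0.16) at an adjusted p of 0.00302, was 1.07, 1.22 and 1.38 under those 3 fits. Atp8a2, a phospholipid flippase of neurons, had 39.3, 41.5, 50.0, 50.1 and 38.5 CPM in high libraries, against 21.1, 20.5, 17.6, 24.3 and 18.8 CPM in basal libraries. Its log2 fold change of 1.11 (SE 0.15, adjusted p = 0.00302) was 1.10, 1.12 and 1.20 under the same fits. An offset for GC and length gave smaller values, 1.91 for Dcc, 0.96 for Ryr3 and 0.87 for Atp8a2, each still called. Slc9a7, a sodium and proton exchanger of the Golgi, averaged 14.4 ± 4.61 CPM in high and 5.26 ± 1.93 CPM in basal libraries (SD, n = 5 each; log2 fold change 1.52, adjusted p = 0.0103). Dcc, Ryr3 and Atp8a2 were called in each of the 16 fits that left out 1 library, and Slc9a7 in 15.

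**Figure D2:**
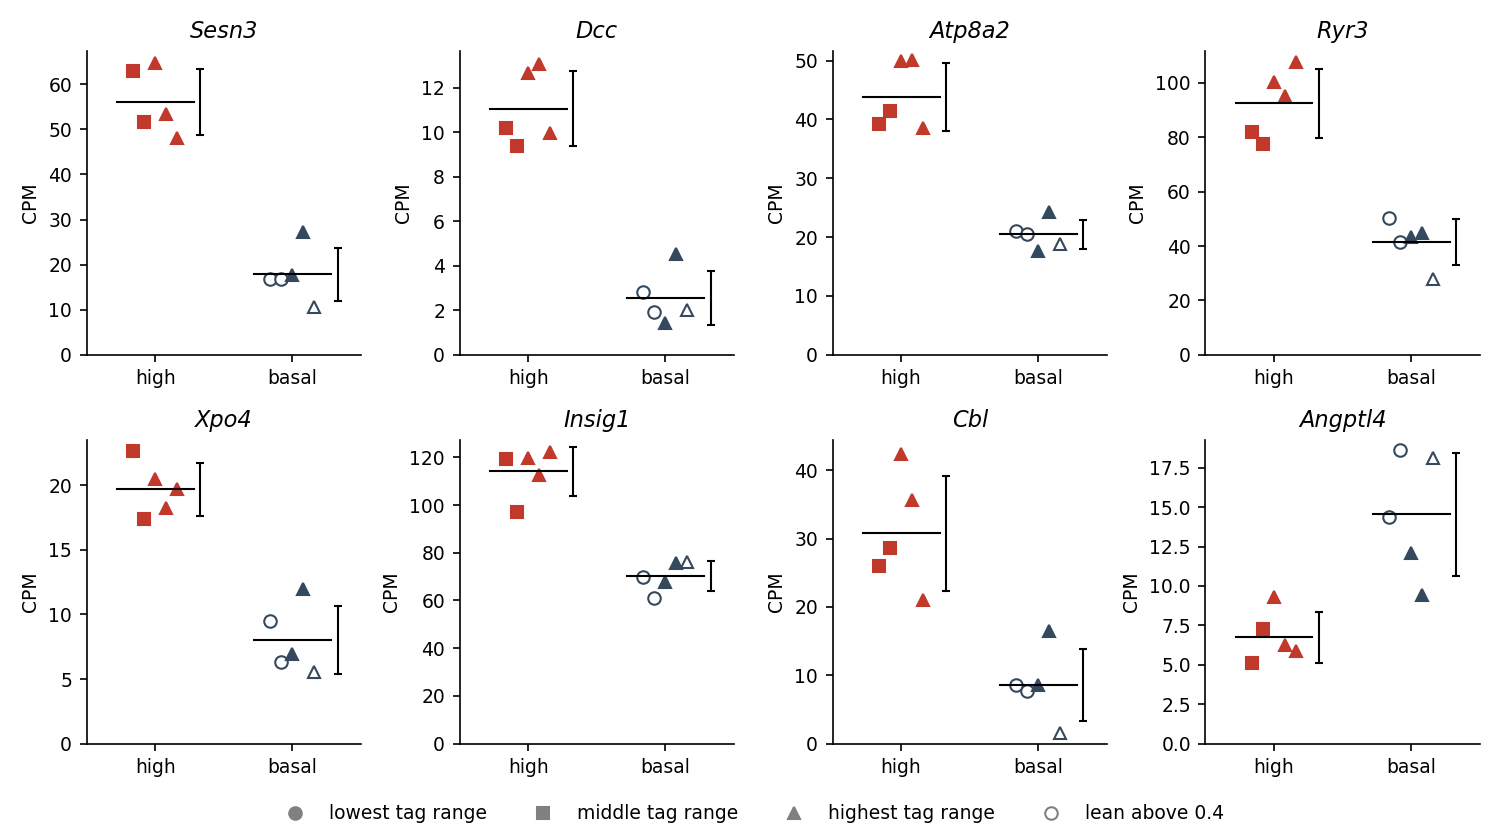
Levels in CPM (counts scaled to library size) of 8 called genes in each of the 5 high (red, left) and 5 basal (dark, right) libraries. Lines are means, bars are SD, the marker shape gives the tag range and open markers are libraries with a GC lean above 0.4. The high libraries lie above the basal ones for 7 genes and below them for Angptl4. Basal replicate 4 is the closest basal library for Sesn3, Dcc, Atp8a2, Xpo4, Cbl and Angptl4.

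Other higher genes act in the nucleus, in protein folding or in less studied roles. Xpo4, a nuclear transport receptor, had 22.7, 17.4, 20.5, 18.2 and 19.7 CPM in high libraries, against 9.52, 6.34, 6.91, 11.9 and 5.53 CPM in basal libraries (log2 fold change 1.33, SE 0.19, adjusted p = 0.00302). Its groups did not overlap. Tet2, which oxidises methylated cytosine in DNA, averaged 73.6 ± 4.40 CPM in high and 45.0 ± 9.23 CPM in basal libraries (0.72, adjusted p = 0.0369). Dnajb14, a co-chaperone of the endoplasmic reticulum membrane, averaged 219.7 ± 19.3 CPM in high and 146 ± 11.8 CPM in basal libraries (0.59, adjusted p = 0.0109; SD, n = 5 each). With an offset for GC and length the log2 fold change was 0.90 for Xpo4, 0.43 for Tet2 and 0.18 for Dnajb14. Without the GC-leaning libraries it was 0.47 for Tet2. Lcor, a corepressor of nuclear receptors, averaged 7.498 ± 3.46 CPM in high and 2.04 ± 1.23 CPM in basal libraries (1.99, adjusted p = 0.0369), and it was the higher gene whose groups overlapped, since high replicate 3 had 2.20 CPM and basal replicate 4 had 4.11 CPM. The zinc finger gene Zfp871 (2.28, adjusted p = 0.0369), the membrane protein gene Lmbrd2 (1.70, adjusted p = 0.0482) and Gk5, of the glycerol kinase family (0.99, adjusted p = 0.0497), completed the protein-coding genes together with H2-T24 (1.48, adjusted p = 0.0158). H2-T24 belongs to the MHC class I family, whose near-identical members can share reads, so its assignment is uncertain. Without the GC-leaning libraries Lmbrd2 came to 1.005. Of the 10 fits that left out a high or basal library, Tet2 and Lmbrd2 kept their call in only 2. Lcor, Zfp871 and Gk5 kept it in 3, H2-T24 in 6, Dnajb14 in 8 and Xpo4 in all 10.

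The remaining 10 called genes are not protein-coding, and all 10 were higher. They include the antisense gene Srrm4os, opposite the splicing regulator Srrm4 on chromosome 5 (116438720 to 116465487, plus strand), which averaged 9.25 ± 1.90 CPM in high and 2.66 ± 0.987 CPM in basal libraries (SD, n = 5 each; log2 fold change 1.87, adjusted p = 0.00302). Srrm4 itself had a log2 fold change of 0.14 (adjusted p = 0.494). The libraries were stranded, but how strand was used in counting is not stated in the sources used here, so reads of such pairs may be mixed. The same holds for Gm15777 opposite Coq2, Gm15893 opposite Msi2 and Gm26835 opposite Hivep2, whose log2 fold changes were 2.53, 1.81 and 2.79, against -0.25, 0.38 and 0.62 for the opposite genes. Another 5 overlap a longer gene on the same strand. Gm37310 overlaps the glutamate transporter gene Slc1a3, Gdap10 overlaps Nampt, Gm15616 overlaps Gabrb1, Gm42770 overlaps Kcnip4 and Gm36936 overlaps Nedd4. Their log2 fold changes were 2.57, 2.94, 2.29, 1.93 and 1.88, while those of the longer genes were -0.03, 0.28, 0.44, 0.19 and 0.25 and none was called. Without the GC-leaning libraries Gm42770 came to 1.08 and Gm36936 to 1.14. Gdap10 rested on few reads, with 1.70 to 3.40 CPM in high libraries and 0 to 0.81 CPM in basal libraries. Gm10010 had a log2 fold change of 2.43 (adjusted p = 0.0151).

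The transcripts of the 25 higher genes were GC-poorer and longer than the median, and among all genes the fold change ran with GC content too, as described below. Their longest transcripts had a median GC content of 44.5%, between 35.3% and 51.3%, against a median of 49.6% over the genes tested, and 23 of the 25 lay below that median. The 15 protein-coding ones among them had a median transcript length of 9125 bases and a median gene length of 79.6 kb, against 3583 bases and 27.1 kb over the 13106 protein-coding genes tested. Basal replicate 4, the shallowest library, had the highest level of the basal libraries for 17 of the 25, and basal replicate 5, which leans to GC-rich and away from long transcripts, had the lowest for 12. The same counts chose these genes, so this describes the libraries only.

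Levels of the 26 genes were also set against the lean among the 11 insulin libraries of both rates, in which it ran between -0.61 and 0.29. Sesn3 had Pearson's r = -0.76 (permutation p = 0.00728) and Spearman's rho = -0.68 (permutation p = 0.0255), and r = -0.74 without the 2 libraries farthest from the median lean. Dnajb14 had r = -0.77 (permutation p = 0.00571, rho = -0.75 with permutation p = 0.011, r = -0.72 without those 2 libraries). Adjusted over the 26 genes, none passed (0.0917 for Sesn3, Dnajb14 and Gm36936). Dcc (r = -0.09, permutation p = 0.803), Insig1 (r = 0.16, permutation p = 0.642) and Angptl4 (r = 0.02, permutation p = 0.963) had smaller r. The median size of r was 0.268 for the 26 genes and 0.455 for all genes tested.

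**Figure D3:**
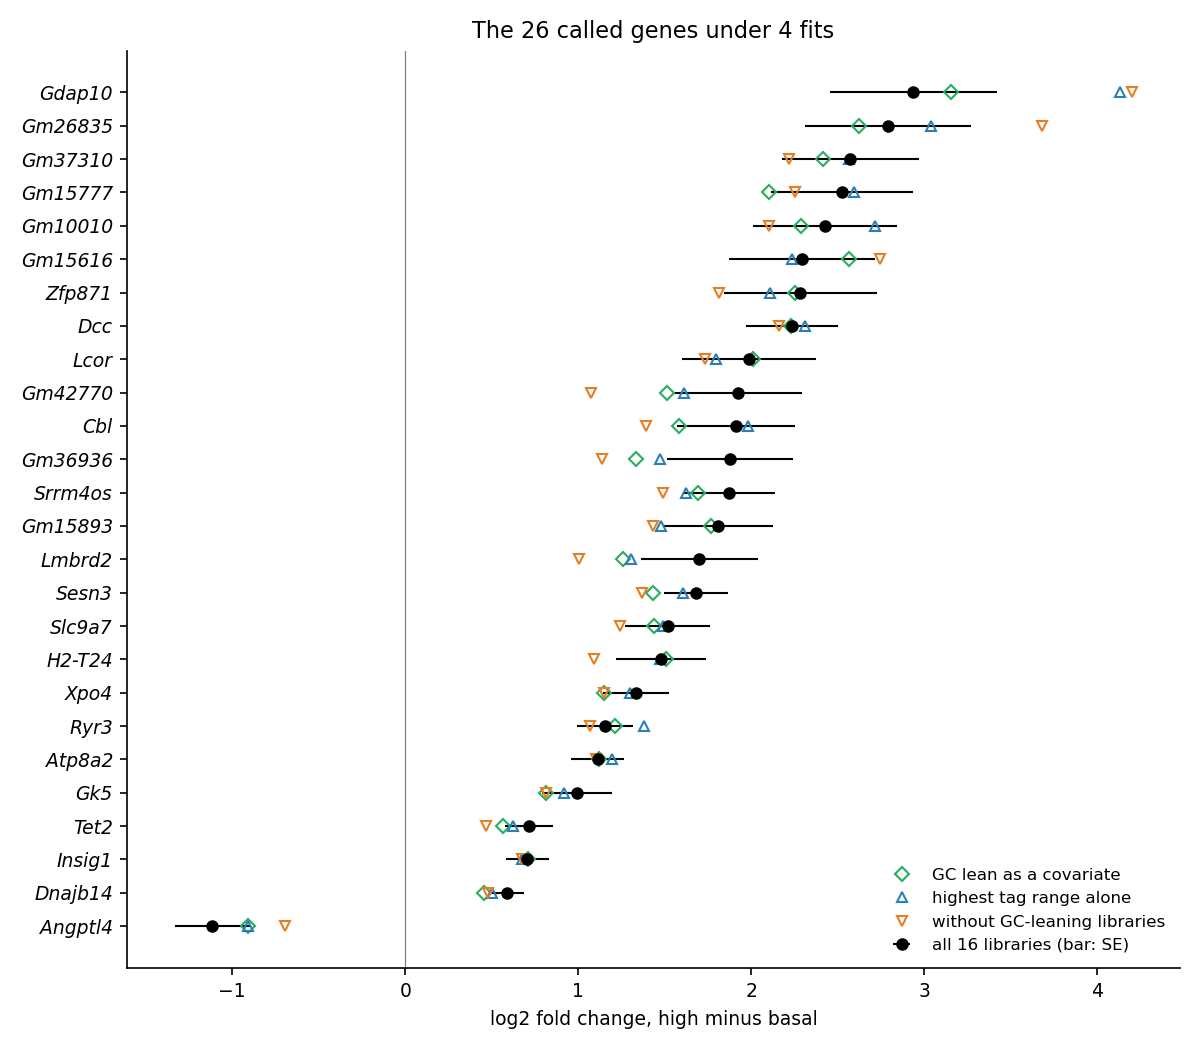
Log2 fold changes, high minus basal, of the 26 called genes in the fit of all 16 hypothalamic libraries (black, with SE), with the GC lean as a covariate, in the highest tag range alone and without the GC-leaning libraries. Each gene stays on its side of 0 under the 4 fits, and the values of Insig1, Atp8a2 and Dcc nearly coincide.

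Across all genes the fold change followed transcript GC. Genes were divided into 5 bins of equal size by the GC content of the longest transcript, known for 14088. From the GC-poorest bin (22.1% to 43.7%) to the GC-richest (55.4% to 73.7%) the median log2 fold change was 0.31, 0.14, -0.01, -0.18 and -0.35, and 86.4% of the first bin but 8.91% of the last lay above 0. Spearman's correlation between fold change and GC was -0.65 across these genes, which are not independent. It was -0.19 with the lean as a covariate and -0.06 without the GC-leaning libraries. The lean was defined from transcript GC over these same genes, so a smaller correlation in those 2 fits was built in. The correlation was -0.49 with tag range as a batch term and -0.42 within the highest tag range, where basal replicate 5 leans. Of the called genes with a known GC content, the 3 GC-poorer bins held 10, 8 and 7 higher ones and the middle one Angptl4, and the 2 GC-richer bins held none. Without basal replicate 4 the GC-poorest bin held 519 higher and 5 lower calls and the GC-richest 2 higher and 549 lower.

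**Figure D4:**
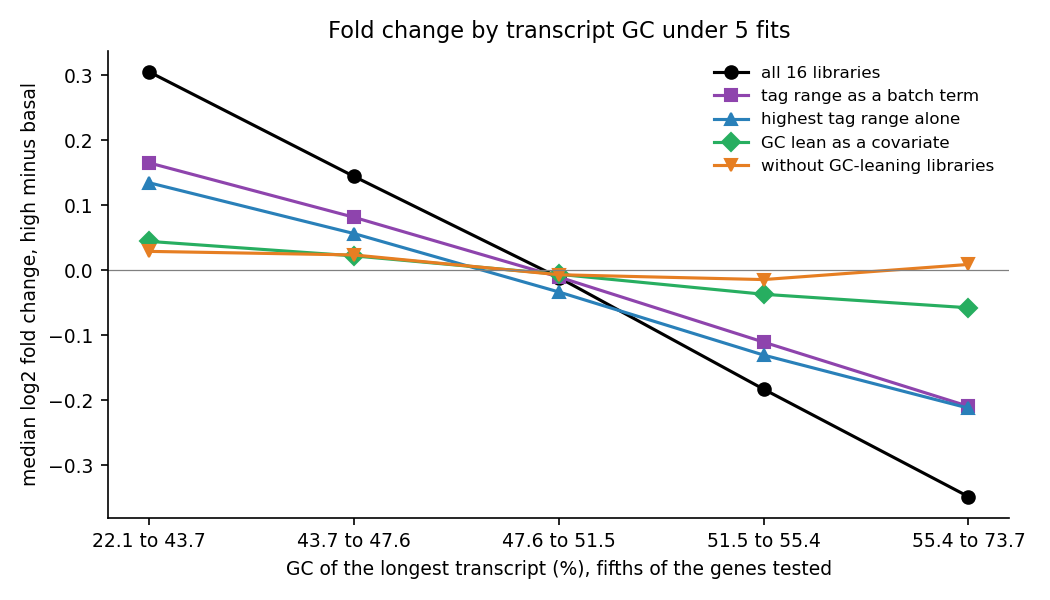
Median log2 fold change, high minus basal, in 5 equal bins of the genes by GC content of the longest transcript (x axis, percent) under 5 fits. The slope from 0.31 to -0.35 with all libraries is smaller within the highest tag range. It is nearly flat with the lean as a covariate or without the GC-leaning libraries, where the definition of the lean builds this in.

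Some genes turned direction when the lean was taken into account. Among the 3406 genes with an unadjusted p under 0.05, 796 (23.4%) had the opposite sign without the GC-leaning libraries, 706 of them lower in the fit of all libraries, and 109 (3.20%) with the lean as a covariate. Within the highest tag range 1 of 3400 turned. Of those chosen by rule, the lower genes were Tceal3, Nnat and Tmub1, and the higher genes Slc4a4, Ptbp2 and Ranbp2. Tceal3, a small gene of the transcription elongation factor family, averaged 23.2 ± 3.85 CPM in high and 53.7 ± 36.8 CPM in basal libraries, with a log2 fold change of -1.22 that became 0.09 without the GC-leaning libraries. Nnat, neuronatin, a small membrane protein abundant in the hypothalamus, averaged 275 ± 57.1 CPM in high and 515 ± 267 CPM in basal libraries (SD, n = 5 each), and its -0.91 became 0.04. Tmub1 went the same way, with -1.03 and 0.02. The higher genes Slc4a4, a bicarbonate transporter, Ptbp2 and Ranbp2, a nuclear pore protein, had 0.42, 0.55 and 0.53 and came to just under 0 (0.00 when rounded) without those libraries. None of the 6 was called.

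Next to the called genes stood others that did not pass. On the higher side, Stxbp5l, a brake on synaptic SNARE assembly, averaged 14.6 ± 1.40 CPM in high and 5.44 ± 1.91 CPM in basal libraries (SD, n = 5 each; log2 fold change 1.42, adjusted p = 0.0519). Zfhx4, Dicer1, which cuts microRNA precursors, Zfp398 and the Polycomb gene Phc3 had 0.96, 0.69, 0.89 and 0.81 (adjusted p = 0.0593 to 0.0634), and 0.47, 0.40, 0.59 and 0.44 without the GC-leaning libraries. Their transcripts were between 43.8% and 47.3% GC. On the lower side, Cavin1, a coat protein of caveolae, had 20.2, 20.4, 25.7, 18.8 and 22.7 CPM in high libraries, against 29.8, 34.5, 32.5, 26.3 and 33.8 CPM in basal libraries. All high libraries lay below all basal ones, and the fold change on the log2 scale was -0.55 (adjusted p = 0.0668). Sh2b1, an adaptor of the insulin and leptin receptors, averaged 19.8 ± 3.50 CPM in high and 32.2 ± 7.70 CPM in basal libraries (-0.71, adjusted p = 0.0688), and -0.29 without the GC-leaning libraries. Ttll3, Notch4, Prr7, Cc2d1a, Tmem28, Mlycd, which degrades malonyl-CoA, and Aimp2 had -0.69 to -1.29 (adjusted p = 0.0673 to 0.0835). Without the GC-leaning libraries they had -0.34 to -0.60, with -0.38 for Prr7, -0.39 for Aimp2, -0.34 for Mlycd and -0.37 for Cc2d1a. The longest transcripts of these 9 lower genes were all above the median GC content of the genes tested.

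Lists of insulin signalling and fasting genes held the called genes Cbl, Sesn3 and Angptl4. Of 22 tested genes of receptors and adaptors, 1 was called, Cbl, and the median log2 fold change was 0.03. Insr, the insulin receptor, averaged 134 ± 11.5 CPM in high and 103 ± 37.3 CPM in basal libraries (0.39, adjusted p = 0.208). Irs1 averaged 16.5 ± 1.33 CPM in high and 12.0 ± 5.13 CPM in basal libraries (0.45, adjusted p = 0.273), with each basal library but replicate 5 between 14.1 and 14.6 CPM and that one at 2.88 CPM. Irs2, a FOXO target, averaged 53.8 ± 7.51 CPM in high and 56.1 ± 20.2 CPM in basal libraries (-0.06, adjusted p = 0.885), and Igf1r averaged 48.7 ± 7.88 CPM in high and 40.3 ± 14.9 CPM in basal libraries (0.29, adjusted p = 0.373). Of 44 genes of PI3K, AKT, mTOR and RAS signalling 1 was called, Sesn3, and the median was 0.08. Rictor, which defines mTORC2, had 0.80 (adjusted p = 0.113), and Braf 0.68 (adjusted p = 0.131). Of 29 FOXO and fasting genes Sesn3, the same call as in the list before, was higher and Angptl4 was lower, with a median of -0.18. Over all genes tested 0.184% were called and 47.5% lay above 0.

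Lipid and glucose genes gave 1 more call. Of 28 tested genes of sterol sensing, synthesis and uptake, Insig1 was called, 18 lay above 0 and the median was 0.11. With the lean as a covariate 23 of 28 lay above 0 and the median was 0.25, and without the GC-leaning libraries 23 of 28 with 0.23, against medians of -0.01 and 0.01 over all genes. Stard4, a sterol carrier, had 0.58 (adjusted p = 0.0835), and Scap, the SREBP escort protein, -0.40 (adjusted p = 0.0920). Of 22 fatty acid synthesis genes none was called (median 0.03), and 3 higher and 2 lower had an unadjusted p under 0.05, as did 11.1% (higher) and 13% (lower) of all genes tested. Among them were Scd1 with 0.39 and Dgat2 with -0.49. Of 32 genes of glucose transport and glycolysis none was called and 12 lower and 4 higher had an unadjusted p under 0.05. Their median of -0.23 was 0.06 without the GC-leaning libraries.

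Genes of excitability and wiring gave 2 calls, Dcc and Ryr3. Of 43 potassium and HCN channel genes 27 lay above 0 (median 0.24), and Kcnma1, the BK channel, had 1.25 (adjusted p = 0.0634). Of 27 sodium and calcium channel genes 18 lay above 0 (median 0.14), with Scn2a at 0.75 (adjusted p = 0.0673) and Cacnb4 at 0.80 (adjusted p = 0.0673). Of 40 GABA and glutamate receptor genes 27 lay above 0 (median 0.12), with Gabrb2 at 1.28 (adjusted p = 0.0673) and Grin2b at 0.81 (adjusted p = 0.0777). None of these 110 genes was called. Only 0.184% of all genes tested were called, so the absence of calls in such lists says little, and 47.5% of all genes lay above 0. Without the GC-leaning libraries the medians of these 3 lists were 0.04, 0.04 and 0.01. Ryr3 was the 1 call among 13 ryanodine, IP3 receptor and SERCA genes, of which 6 lay above 0 (median -0.03). Dcc was the 1 call among 33 guidance genes, of which 23 lay above 0 (median 0.22), and Robo2 had 0.72 (adjusted p = 0.0910).

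Peptide genes spread widely between libraries, and none was called. Pomc, the precursor of melanocortins in satiety neurons, had 14.7, 14.1, 0.17, 14.7 and 4.30 CPM in high libraries, against 22.9, 19.9, 14.9, 10.7 and 32.7 CPM in basal libraries (log2 fold change -1.09, adjusted p = 0.263). Hcrt, the orexin gene of the lateral hypothalamus, had 119, 159, 0.17, 83.9 and 38.3 CPM in high libraries, against 184, 263, 63.3, 110.6 and 439 CPM in basal libraries (-1.41, adjusted p = 0.321). Pmch, the melanin-concentrating hormone gene, was at 2.03 CPM in high replicate 3 and at 233 to 828 CPM in the other high libraries, against 301 to 786 CPM in basal libraries (-0.40, adjusted p = 0.799). High replicate 3 was thus near 0 for 3 peptide genes. High replicate 5 was near 0 for Avp, vasopressin (0.91 CPM, against 47.0 to 92.1 CPM in the other high libraries and 43.6 to 290 CPM in basal libraries), and for Oxt, oxytocin (0.23 CPM). No basal library lacked any of the 5. Fewer cells of a type and less RNA per cell cannot be told apart in such tissue RNA. Without the libraries lacking a peptide, 3 high and 5 basal libraries among them, 9 genes were called (0.062%), 8 of them among the 26.

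Markers of the dissected region were lower in summed level in the high libraries. The 23 tested hypothalamic markers had a median log2 fold change of -0.74, with 4 above 0 and none called. They include the peptide gene Oxt, and their median transcript GC was 56.9%, with 18 above the median of the genes tested. Their summed level was 2840, 2812, 1745, 2322 and 1593 CPM in high libraries, against 3503, 3123, 3244, 2899 and 3116 CPM in basal libraries, so the groups did not overlap, and no marker was at 0 throughout. The median was -0.50 without the libraries lacking a peptide and -0.25, with 7 above 0, without the GC-leaning libraries. Summed markers of neighbouring tissue overlapped between groups, with 1115 to 1597 CPM in high and 965 to 1792 CPM in basal libraries for the thalamus, and 704 to 1176 CPM in high and 802 to 943 CPM in basal libraries for the striatum. For the striatum the overlap rested on high replicate 3 alone (1176 CPM), the library near 0 for Pomc, Hcrt and Pmch. The other high libraries, at 704 to 798 CPM, lay below every basal one. Pituitary genes summed to 4.56 to 44.4 CPM in high and 27.2 to 57.6 CPM in basal libraries, with Lhb at 0 in all 10. This list includes Pomc, and its lowest sum belonged to high replicate 3, which was near 0 for that gene. Ependymal and tanycyte markers had a median of -0.47 (3 of 15 above 0) and endothelial and mural markers -0.32 (3 of 21 above 0), where Myl9, a myosin light chain of smooth muscle, had -1.11 (adjusted p = 0.134). Without the GC-leaning libraries these medians were -0.20 and -0.12. Astrocyte markers summed to 8081 to 8536 CPM in high and 7458 to 8180 CPM in basal libraries. The part of tissue content in the called genes was not tested.

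The medians of the housekeeping lists changed sign with the choice of libraries. Across all genes tested, 0.184% were called and 13% were lower at an unadjusted p under 0.05 in edgeR. The 77 tested ribosomal protein genes had a median log2 fold change of -0.57, with 2 above 0, none called and 17 lower at an unadjusted p under 0.05. Their median was 0.41 without the GC-leaning libraries, with 71 above 0, and -0.01 with the lean as a covariate, with 36 above 0. Their summed level was 4149 to 5919 CPM in high libraries and 4212 to 7845 CPM in basal libraries other than replicate 5, which had 14772 CPM. Rps3 averaged 123 CPM in high and 211 CPM in basal libraries (-0.78, adjusted p = 0.143) and had 0.15 without the GC-leaning libraries. The 72 nuclear respiratory chain genes followed the same course, with medians of -0.45, 0.35 and 0.02 under the 3 fits and 4, 66 and 39 above 0. Heat shock (13 tested), unfolded protein response (24), immediate early (22), glucocorticoid-responsive (22) and clock genes (19) had medians of -0.26, -0.20, -0.08, -0.05 and 0.12, and Angptl4 was the 1 call among them.

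**Figure D5:**
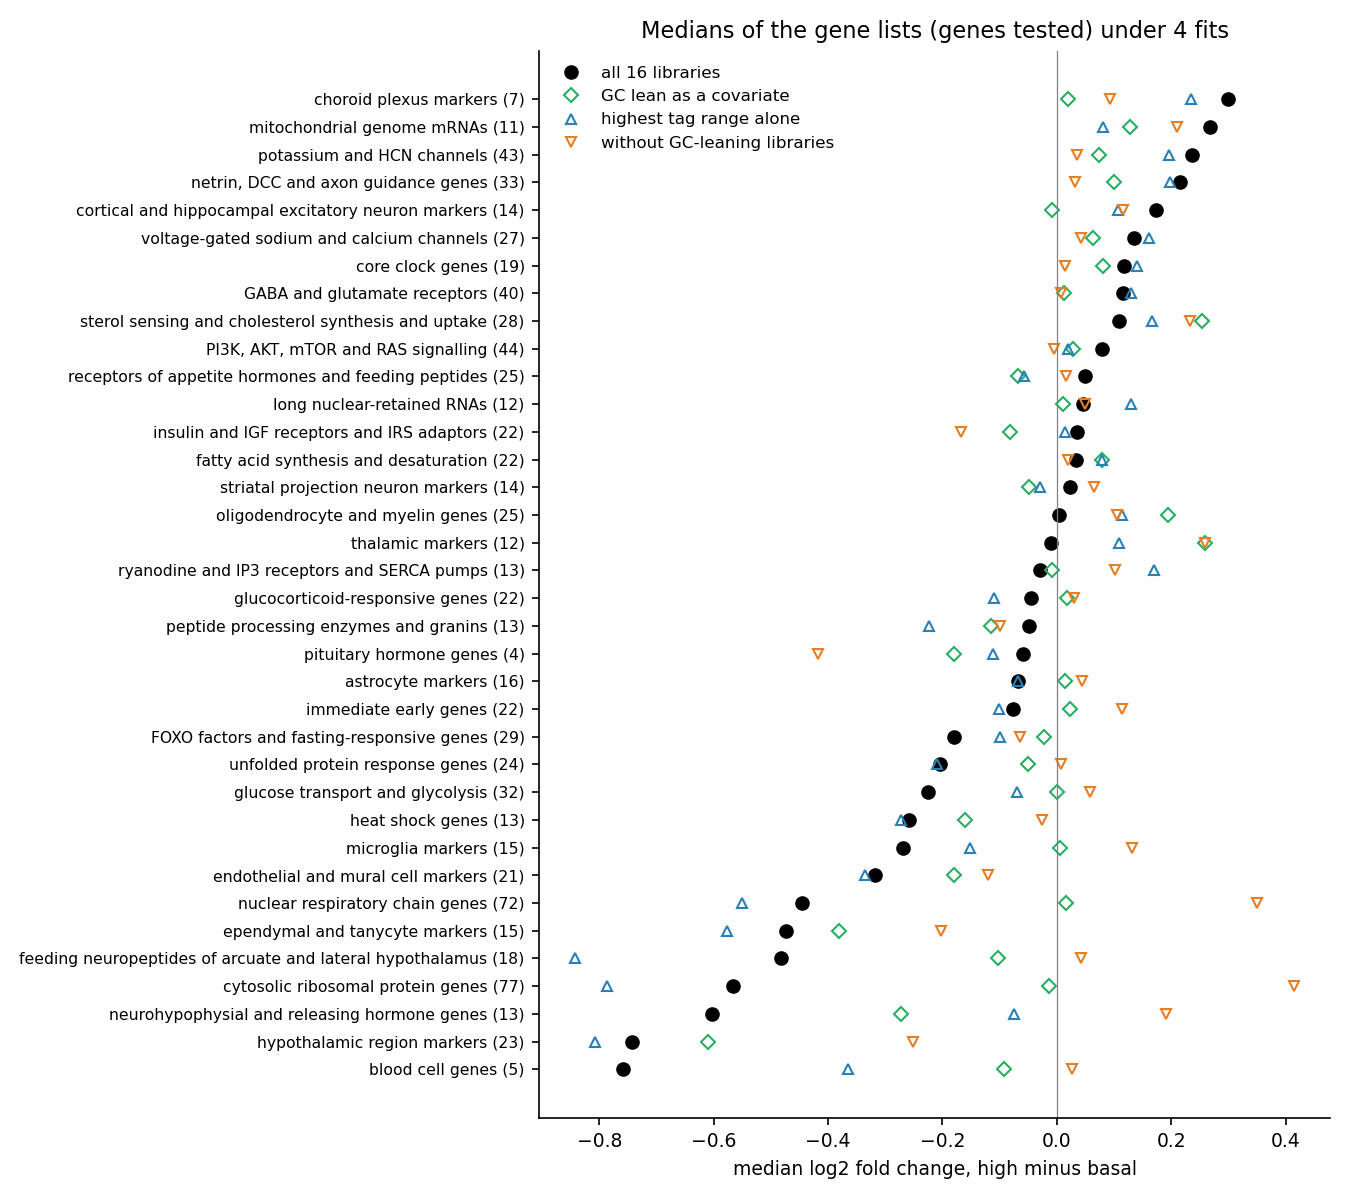
Median log2 fold change, high minus basal, of each of the 36 gene lists (number of genes tested in brackets) in the fit of all 16 libraries and under 3 others. Ribosomal protein and respiratory chain genes move from below 0 to above it without the GC-leaning libraries, the hypothalamic markers stay below 0 under the 4 fits and the sterol list stays above it.

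The high and low groups were compared directly, a contrast without the basal libraries. No gene passed (0 of 14139, with 199, or 1.41%, at an unadjusted p under 0.05 in edgeR). Among the 26 genes the log2 difference ran between -0.79 for Zfp871 and 0.65 for Gm15616, with -0.06 for Sesn3 and 0.00 for Insig1. Against the same basal libraries, the low group gave 760 calls (5.38%). There Sesn3 had a log2 fold change of 1.74, Dcc 2.67, Ryr3 1.30, Insig1 0.70 and Angptl4 -1.11, and the high group had 1.68, 2.24, 1.16, 0.71 and -1.11, where the shared basal libraries tie both sets of values together.

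Whether the response was particular to the hypothalamus was tested with all 52 libraries, taken as independent because no label ties a library to an animal. Tissues that came from the same mouse, if any, were thus not accounted for. No gene differed from the same contrast in the hippocampus or the nucleus accumbens at an adjusted p under 0.05 in edgeR (1423, 9.5%, and 2821, 18.8%, of 14985 genes at an unadjusted p under 0.05, smallest adjusted p 0.43 and 0.228). In that fit no gene was called in the hypothalamus either. All 25 higher genes lay above 0 in the hippocampus, with a median log2 fold change of 1.16, where Dcc had 2.34, Insig1 0.52 and Sesn3 1.00, none of them called. In the nucleus accumbens 15 of the 25 lay above 0 with a median of 0.15, where Dcc had 0.08, Insig1 0.15 and Sesn3 -0.23. The smallest p for a difference from the hippocampus belonged to Ttll3, a tubulin-modifying enzyme (difference -1.19, adjusted p = 0.43), the interferon-induced Gbp2 (-2.03, adjusted p = 0.43) and the small heat shock gene Hspb1 (-2.61, adjusted p = 0.509). Of the 3 for the nucleus accumbens only Nanos2 had passed the hypothalamic filter (-1.59, adjusted p = 0.228).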

How the data were processed

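The authors deposited 1 table of raw counts of reads per Ensembl gene. Per the submitters' processing notes the aligner STAR and the counter featureCounts were used with GRCm38.p4, and their versions, options, annotation and strand setting are not stated in the sources used here. Per the labels, libraries were stranded. Counts merge isoforms, and PCR copies may be counted more than once. GENCODE M21 named 45229 of 46071 identifiers; the other 842 hold 0.0844% of counts and were kept. Totals of the 10 libraries ran from 2453412 to 7144772.

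The 16 hypothalamic libraries were fitted in edgeR 4.0.16 (R 4.3.3; TMM, filterByExpr, robust quasi-likelihood test, 2-sided, Benjamini-Hochberg over all genes). CPM values use TMM-scaled totals. The 35 pairs of libraries within a group differed beyond sampling noise (chi-square per gene 3.66 to 45.0), and none was merged. The lean used log2 CPM with a prior count of 2. Libraries above 0.4 were called GC-leaning. A gap in tag numbers above 20 began a range and above 5 a run. A library lacked a peptide where Hcrt, Pmch, Avp, Oxt or Pomc was below 1 CPM. Correlations used 100000 permutations. Alternatives used DESeq2 1.42.0, limma 3.58.1 and sva 3.50.0, a loess offset of span 0.3 for GC and length, and the fits named with their values. Steps were checked on simulated counts.

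Named genes are all called ones, the 5 higher and 10 lower of smallest p not called (mean CPM of at least 5, no predicted symbol), up to 4 members of a list by p, 4 insulin and 5 peptide genes, the first 3 for each tissue difference, up to 5 called in fits that account for lean or range, and 3 higher and 3 lower that turn direction. Some genes that meet these rules are not reported here. RefSeq promoters were at hand for 11 of the 26 called genes. The comparison, lists, alternatives and rules were chosen with earlier results of these data known.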

Additional observations from a re-analysis of the deposited data

Results flagged for a closer look

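Among 76 groups of 5 libraries checked (35 genes and some library properties, in the high and basal groups), 6 had a library set apart from the other 4 by a wide gap, where chance alone gives about 1 in 20. Slc9a7 had 22.45 CPM in high replicate 4, against 10.8 to 13.8 CPM in the other high libraries, and 8.635 CPM in basal replicate 4, against 3.76 to 4.69 CPM in the other basal libraries. These 2 libraries belong to the same run of neighbouring tag numbers. Gm36936 had 7.55 CPM in high replicate 1, with the others between 5.15 and 5.39 CPM. Insr had 114.4 CPM in high replicate 5, the lowest, with the others between 134.9 and 143 CPM. Irs1 had 2.876 CPM in basal replicate 5, with the others between 14.1 and 14.6 CPM, and Irs2 had 21.46 CPM in that library, with the others between 58.2 and 73.2 CPM. Basal replicate 5 also had the lowest lean to long transcripts of the 10 libraries (-0.57).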

How the results depend on the processing

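The count of called genes was 26 with DESeq2 size factors in edgeR, 23 with log total count as a covariate, 34 with the GC and length leans as covariates and 39 with 1 surrogate variable. It was 50 with no filter on low counts, 359 with DESeq2, 53 with limma-voom, 40 with the GC and length offset, 199 at an adjusted p under 0.1, 17 with only high and basal libraries and 9 without the libraries lacking a peptide. It was 5 with a batch term for tag range, 4 with the GC lean as a covariate and 1 without the GC-leaning libraries. It was 0 with the tag run as a batch term (1136 of 14139 genes at an unadjusted p under 0.05 in edgeR) and in the highest tag range (640 of 14405). It was also 0 there with the lean as a covariate (713 of 14405, added after seeing the data) and in a joint fit of the 52 libraries (3450 of 14985). When single libraries were dropped it ran between 6 and 1861. Of 853 values of the 26 genes over 33 settings, 0 reversed, 348 were not called and 505 kept the call. The 348 include Gdap10, Gm26835 and Gm15616 in DESeq2, which gave them no adjusted p. The cause was not tested. The difference in lean kept its sign in each of 13 alternatives, from -0.24 to -0.62 in the 12 on the correlation scale, and none passed (exact permutation p 0.0635 to 0.6). The count of tissue differences was 0 with the lean as a covariate and without the GC-leaning libraries. Of 36 list medians, 20 moved by more than the spread between libraries without the GC-leaning libraries and 9 with the lean as a covariate. No paired analysis was possible because the titles number the libraries in 1 running series, so that groups share no replicate numbers; tag runs stood in its place. Depth limits genes such as Gdap10 and Gm26835, with 0 to 0.81 CPM in basal libraries.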
